A study of Mus musculus with 4 samples.

Results

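Cajal-Retzius cells are early-born neurons of the marginal zone, the outermost layer of the developing cortex. They secrete reelin, an extracellular glycoprotein that binds receptors on migrating cortical neurons and steers their placement into layers. They are known to arise outside most of the cortical plate, at the cortical hem, the septum and the pallial-subpallial border, and to spread over the cortex beneath the meninges. Lhx2, a LIM-homeodomain transcription factor of cortical progenitors, is known to restrict the hem at early stages, so genes of the hem's neuronal progeny are of interest where Lhx2 is targeted.

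The set described here was 10 symbols listed as Cajal-Retzius cell genes, and 8 of them (Reln, Trp73, Ndnf, Ebf1, Ebf3, Calb2, Lhx5 and Cacna2d2) had a row among the 13289 genes of the count table. Ebf2 and Lhx1 were not analysed here. RNA-seq of polyadenylated RNA was made from mouse cerebral cortex at embryonic day 15 (E15), in 2 libraries titled WT, called control, and 2 titled Lhx2cKO, called Lhx2 cKO and read as a conditional knockout of Lhx2. The labels name no strain, driver line, allele, sex or litter, and do not say whether a library came from 1 embryo or several, so the p-values measure the spread between these libraries, which may be technical in part. The question of the comparison is which transcripts differ in the E15 cortex when Lhx2 is targeted.

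Totals ranged from 22294237 to 24609627 counts per library. Values are given as CPM, counts scaled to a common library total, with TMM scaling, which corrects for differences in library composition. The targeted gene reached 316 and 287 CPM in control 1 and control 2 against 239 and 247 CPM in Lhx2 cKO 1 and Lhx2 cKO 2, so its transcript was still abundant there. In edgeR's quasi-likelihood test its log2 fold change of -0.31 passed (adjusted p = 0.0191). That call for Lhx2 was lost without control 1 (adjusted p = 0.176), without Lhx2 cKO 1 (0.102) and without Lhx2 cKO 2 (0.0538), and spanned 0.00755 to 0.176 across the alternatives. A gene is said to have risen or fallen where its adjusted p, by Benjamini-Hochberg over all 13288 genes tested, was under 0.05.

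Of the 8 Cajal-Retzius genes, 4 rose in Lhx2 cKO (Reln, Ndnf, Ebf3 and Trp73) and 0 fell, against a background of 20.8% of all tested genes called, 11.6% higher and 9.17% lower. Leaving out any 1 library left 3 of the 8, without Trp73, and the number called over all genes went from 2758 to 1633 without Lhx2 cKO 2 and to 1790 without control 1. In all 8, both Lhx2 cKO libraries lay above both control libraries, which was so for 30.2% of all tested genes. The median log2 fold change of the 8 was 0.41, beside 0.003 over all tested genes. The other 4 members, Ebf1, Calb2, Lhx5 and Cacna2d2, had estimates from 0.23 to 0.37 that did not pass the test. Each moved by more than 1.5 times when 1 library was left out: Ebf1 was at 0.12 without Lhx2 cKO 1, Lhx5 at 0.11 and Cacna2d2 at 0.13 without Lhx2 cKO 2, and Calb2 at 0.19 without control 1. In whole cortex, a larger number of cells of a type and more RNA per cell cannot be told apart, so every rise below is one of tissue RNA.

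**Figure D1:**
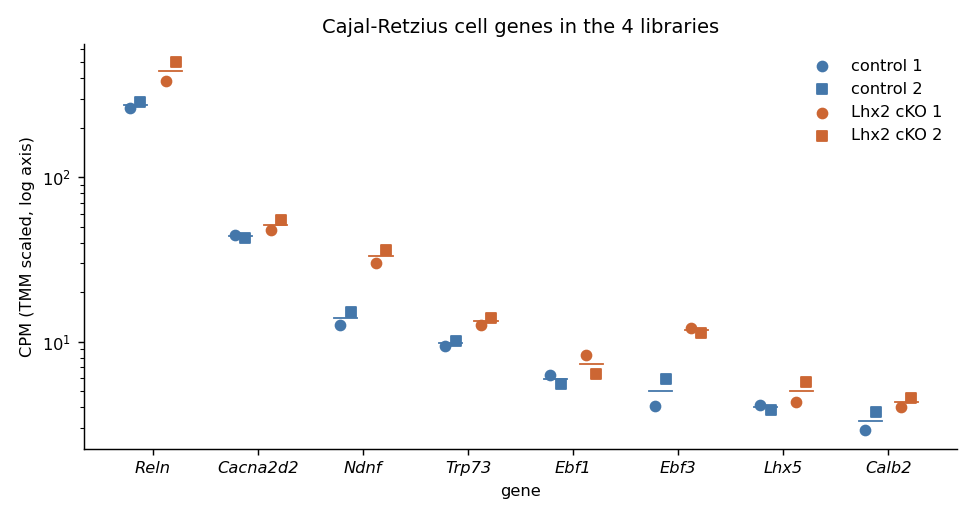
CPM of each member (log axis) in the 4 libraries, with a bar at each group's mean; circles are replicate 1 and squares replicate 2. The orange Lhx2 cKO points lie above the blue control points for all 8 genes, by the widest margin for Ndnf and Ebf3.

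Reln (ENSMUSG00000042453.15; chr5:21884454-22344702, minus strand, GRCm38) encodes reelin itself. It stood at 261 CPM in control 1 and 287 CPM in control 2, and at 384 CPM in Lhx2 cKO 1 and 498 CPM in Lhx2 cKO 2. The lower Lhx2 cKO library was 1.34 times the higher control library, and the Lhx2 cKO libraries differed from each other more than the control libraries did. The group means were 274 ± 18.4 CPM in control and 441 ± 81.1 CPM in Lhx2 cKO (SD, n = 2). Reln thus rose 1.61-fold, or 0.68 on the log2 scale, with an SE of 0.109 (adjusted p = 5.86e-06 in edgeR). Reln rose under each scaling, filter and tool tried and without any 1 library, with log2 fold changes of 0.48 without Lhx2 cKO 2 to 0.86 without Lhx2 cKO 1.

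Ndnf (ENSMUSG00000049001.6; chr6:65671590-65712326, plus strand) encodes a secreted protein found in Cajal-Retzius cells and, later, in interneurons of cortical layer 1. Control 1 and control 2 held 12.6 and 15.2 CPM, and Lhx2 cKO 1 and Lhx2 cKO 2 held 30.1 and 36.1 CPM. The lower Lhx2 cKO value was 1.98 times the higher control value. The means were 13.9 ± 1.80 and 33.1 ± 4.29 CPM (SD, n = 2), a rise of 2.38-fold, or 1.25 on the log2 scale (SE 0.133, adjusted p = 1.10e-09). By p-value Ndnf ranked 104 among all tested genes, the highest rank of the 8 members.

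Ebf3 (ENSMUSG00000010476.15; chr7:137193673-137314445, minus strand) belongs to the early B-cell factor family of helix-loop-helix transcription factors, which act in differentiating neurons. It was counted 99 and 149 times in the control libraries and 275 and 260 times in the Lhx2 cKO libraries. These counts correspond to 4.08 and 5.96 CPM in control and 12.1 and 11.3 CPM in Lhx2 cKO, so the groups were well apart although the control libraries were uneven. Ebf3 rose 2.33-fold, or 1.22 on the log2 scale (SE 0.198, adjusted p = 9.07e-06), and the estimate ran from 0.96 without control 1 to 1.52 without control 2. Its relative Ebf1 (ENSMUSG00000057098.15; chr11:44617317-45008091, plus strand), also present in striatal neurons and mural cells, was at 6.23 and 5.56 CPM in control and at 8.31 and 6.40 CPM in Lhx2 cKO. For Ebf1 the second Lhx2 cKO library was only 1.03 times the higher control library, and the log2 fold change of 0.32 did not pass the test (95% interval -0.11 to 0.74, adjusted p = 0.310). That interval allows anything from a small fall to a rise of 1.68-fold. Per kilobase of gene length, Ebf3 was at 0.693 and 1.13 times the level of Ebf1 in the control libraries and at 1.54 and 1.87 times in the Lhx2 cKO libraries.

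Trp73 (ENSMUSG00000029026.18; chr4:154056253-154140208, minus strand) encodes p73, a p53-family transcription factor that marks hem-derived Cajal-Retzius cells. Control 1 and control 2 gave 9.44 and 10.1 CPM for it, Lhx2 cKO 1 and Lhx2 cKO 2 gave 12.7 and 13.9 CPM, and the lower Lhx2 cKO value was 1.25 times the higher control value. The log2 fold change was 0.44 (SE 0.163, adjusted p = 0.048 in edgeR), or 1.36-fold, and the call was a narrow one. It was lost under RLE size factors (adjusted p = 0.0514), library totals (0.0633), limma-voom (0.0528) and DESeq2 (0.115), and without any 1 of the 4 libraries (from 0.0671 up to 0.283), and the alternatives together spanned 0.0444 to 0.283. In the authors' deposited table its log2 fold change was 0.43 with an adjusted p of 0.0589.

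Lhx5 (ENSMUSG00000029595.10; chr5:120431699-120441223, plus strand), a LIM-homeodomain factor of the hem and of Cajal-Retzius cells, was at 4.12 and 3.84 CPM in control and at 4.31 and 5.66 CPM in Lhx2 cKO. The first Lhx2 cKO library was close to the control libraries, and the log2 fold change of 0.32 had a 95% interval from -0.20 to 0.84 (adjusted p = 0.411). Calb2 (ENSMUSG00000003657.10; chr8:110137502-110168210, minus strand) encodes calretinin, a calcium-binding protein shared by Cajal-Retzius cells, some interneurons and thalamic neurons. Its counts, the lowest of the set, numbered 70 and 93 for the control libraries against 91 and 105 for those of Lhx2 cKO, which makes 2.89 and 3.72 against 4.0 and 4.57 CPM. The nearest libraries of the groups were 1.07 times apart, and the log2 fold change of 0.37 had an interval from -0.19 to 0.93 (adjusted p = 0.372). At counts of this size a change smaller than these intervals was not detectable for either gene.

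Cacna2d2 (ENSMUSG00000010066.16; chr9:107399612-107529343, plus strand) encodes an auxiliary subunit of voltage-gated calcium channels. It was far better counted, with 44.7 and 42.7 CPM in control and 47.9 and 54.7 CPM in Lhx2 cKO. Its log2 fold change of 0.23 was the smallest of the 8 and did not pass the test (95% interval 0.02 to 0.44, edgeR unadjusted p = 0.0306, adjusted p = 0.110). The upper bound of that interval is a 1.36-fold rise, below the estimates for Reln, Ndnf and Ebf3. Differences between members in the size of their change were not tested.

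**Figure D2:**
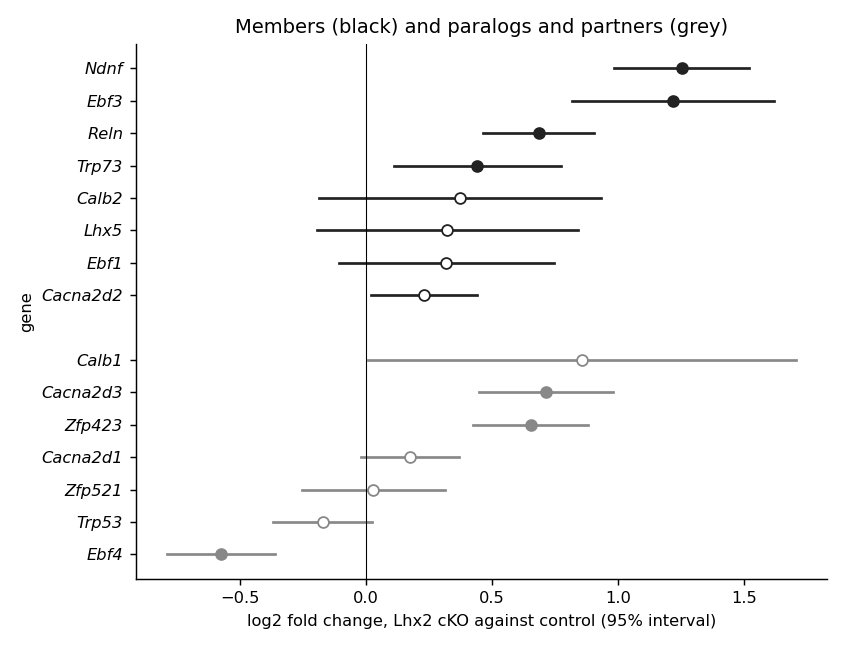
Log2 fold change between Lhx2 cKO and control with its 95% interval for the 8 members (black) and for 7 paralogs and partners (grey); filled points have an adjusted p under 0.05. Among the members Ndnf and Ebf3 lie near 1.2, and the intervals of Calb2, Lhx5 and Ebf1 include 0. Ebf4 lies on the other side of 0.

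The promoters of Reln, Ebf3 and Trp73 are shown because these genes rose and because the 2 starts of Trp73 are summed in 1 row of the count table. Each line holds the 250 bases before a RefSeq start in GRCm38.p6, on the gene's strand, with CpG dinucleotides in capitals. The upstream Trp73 start is known to give p73 with its transactivation domain, and the internal start gives a shorter form that lacks it and is known from Cajal-Retzius cells.
Reln, chr5:22344706-22344955: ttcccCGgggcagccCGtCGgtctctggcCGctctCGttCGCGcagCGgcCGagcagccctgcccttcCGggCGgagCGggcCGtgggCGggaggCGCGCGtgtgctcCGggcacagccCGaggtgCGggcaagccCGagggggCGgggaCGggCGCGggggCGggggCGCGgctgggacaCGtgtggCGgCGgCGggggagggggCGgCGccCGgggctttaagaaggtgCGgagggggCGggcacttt
Ebf3, chr7:137314446-137314695: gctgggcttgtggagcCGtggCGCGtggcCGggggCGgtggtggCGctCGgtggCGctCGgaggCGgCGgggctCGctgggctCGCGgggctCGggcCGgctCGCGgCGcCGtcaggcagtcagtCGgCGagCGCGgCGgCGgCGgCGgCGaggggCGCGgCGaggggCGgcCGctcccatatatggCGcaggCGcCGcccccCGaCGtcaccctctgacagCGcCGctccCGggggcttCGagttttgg
Trp73 upstream start, chr4:154139876-154140125: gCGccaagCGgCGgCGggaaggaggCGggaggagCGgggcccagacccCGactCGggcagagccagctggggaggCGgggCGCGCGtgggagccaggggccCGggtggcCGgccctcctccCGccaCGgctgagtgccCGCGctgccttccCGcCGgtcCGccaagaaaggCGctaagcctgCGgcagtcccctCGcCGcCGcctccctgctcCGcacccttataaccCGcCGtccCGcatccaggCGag
Trp73 internal start, chr4:154097174-154097423: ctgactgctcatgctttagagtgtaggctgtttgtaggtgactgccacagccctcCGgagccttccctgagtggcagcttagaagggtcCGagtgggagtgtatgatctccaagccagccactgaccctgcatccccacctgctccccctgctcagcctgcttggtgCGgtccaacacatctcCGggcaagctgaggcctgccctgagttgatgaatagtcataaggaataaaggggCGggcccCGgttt
Reln had 37 CpG in this window, Ebf3 43 and the upstream Trp73 start 31, while the internal Trp73 start had 6, which is also the median over 32851 RefSeq windows of this length. Fewer CpG were found in 97.8% of these windows than in that of Reln, in 99.3% than in that of Ebf3 and in 94.8% than in the upstream one of Trp73. The gene counts do not separate the 2 starts, so which form of Trp73 differed was not analysed here. An EBF palindrome (TCCC, any 2 bases, then GGGA, in 0.779% of all windows) and a homeodomain core (TAATTA, in 4.84% of all windows), each its own reverse complement and non-overlapping with the other, were searched on both strands. Neither occurred in the 8 windows found for Reln, Ebf3, Trp73, Ebf1, Cacna2d2 and Lhx1. The promoters of Ndnf, Calb2, Lhx5 and Ebf2 were not used here.

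Levels per kilobase of deposited gene length allow a rough comparison between genes. For Reln, Ebf3, Lhx5 and Cacna2d2 that length equalled the exon bases in GENCODE M21, pooled over all annotated transcripts. It can exceed the length of the transcripts present, by amounts that differ between genes, so the ranks and shares below are approximate. By this measure Reln was the most abundant member in each library, at 11.01 and 12.1 CPM per kilobase in control against 16.2 and 21.0 in Lhx2 cKO. Cacna2d2 came next in all 4 libraries, at 5.63 and 5.37 in control against 6.03 and 6.89 in Lhx2 cKO. Behind them Trp73, Calb2, Lhx5 and Ndnf lay between 1.25 and 2.13 CPM per kilobase in the control libraries, where their order differed between replicates. In both Lhx2 cKO libraries Ndnf had rank 3, at 2.97 and 3.57, whereas it had rank 6 in control 1 and rank 5 in control 2. Ebf1 and Ebf3 were the least abundant in every library, between 0.442 and 1.31. Reln made up 46.1% and 47.3% of the members' summed level per kilobase in control and 48.2% and 51.8% in Lhx2 cKO.

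The members did not all vary alike between replicates. Reln, Ndnf, Trp73, Calb2, Lhx5 and Cacna2d2, 6 of the 8, were higher in Lhx2 cKO 2 than in Lhx2 cKO 1, as were 52.1% of all genes, while Ebf1 and Ebf3 were lower. Between the control libraries 5 of the 8 were higher in control 2, as were 50.2% of all genes. Strand use in counting is not given in the sources used here, and in GENCODE M21 an antisense gene covers 5.06% of the exon bases of Trp73, 3.85% of Ebf3, 2.57% of Lhx5, 1.04% of Reln and 1.03% of Cacna2d2. Reads of a gene and its antisense partner cannot be told apart without strand, so the counts of these 5 genes are uncertain, by an amount that was not measured.

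Of the reelin pathway downstream of Reln, all 35 listed genes were analysed. Among them 3 rose and 2 fell, beside 11.6% called higher and 9.17% called lower over all tested genes, with a median log2 fold change of -0.04. Reelin acts through a pair of lipoprotein receptors, encoded by Vldlr and Lrp8. Vldlr rose from 66.2 and 66.3 CPM in control to 101.5 and 108 CPM in Lhx2 cKO (0.66 on the log2 scale, SE 0.097, adjusted p = 1.27e-06). Lrp8 was at 549 and 587 CPM in control and at 485 and 483 CPM in Lhx2 cKO, a log2 fold change of -0.23 (95% interval -0.44 to -0.02) that did not pass the test (adjusted p = 0.110), except in DESeq2 (0.0425), and the alternatives spanned 0.0425 to 0.402. Per kilobase, Vldlr was at 0.152 and 0.142 times the level of Lrp8 in control and at 0.264 and 0.282 times in Lhx2 cKO. By this measure Lrp8 remained the more abundant receptor transcript in every library.

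Dab1, the intracellular adaptor phosphorylated when reelin binds, was at 169 and 183 CPM in control and at 170 and 176 CPM in Lhx2 cKO. These ranges overlap, and the 95% interval of its log2 fold change was -0.21 to 0.17 (adjusted p = 0.908). The kinase gene Fyn was placed likewise, with an interval of -0.19 to 0.20. Both Adamts2 and Adamts3, which encode extracellular proteases that cleave and inactivate reelin, rose. Adamts2 went from 22.7 and 20.4 CPM in control to 38.5 and 34.9 CPM in Lhx2 cKO (log2 fold change 0.77, SE 0.117, adjusted p = 2.78e-06). Adamts3 went from 24.8 and 24.97 CPM to 43.9 and 36.7 CPM (0.69, SE 0.114, adjusted p = 9.99e-06). Adamts4 and Adamts5, other proteases able to cut reelin, did not pass the test, with log2 fold changes of -0.14 and -0.23. The genes that fell were Nectin3, an adhesion molecule on cortical neurons, and Crkl, an adaptor bound by Dab1, the latter named after its values were seen. Nectin3 stood at -0.45 on the log2 scale (SE 0.115, adjusted p = 0.00329) but at -0.27 without control 2 (adjusted p = 0.168, in a span of 8.32e-05 to 0.168 over the alternatives), and Crkl had -0.29 (adjusted p = 0.0357). The Crkl call was lost in DESeq2 (0.0637), without either control library (0.0829 and 0.0894) and without Lhx2 cKO 1 (0.325, at -0.19), among alternatives that spanned 0.0225 to 0.325.

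**Figure D3:**
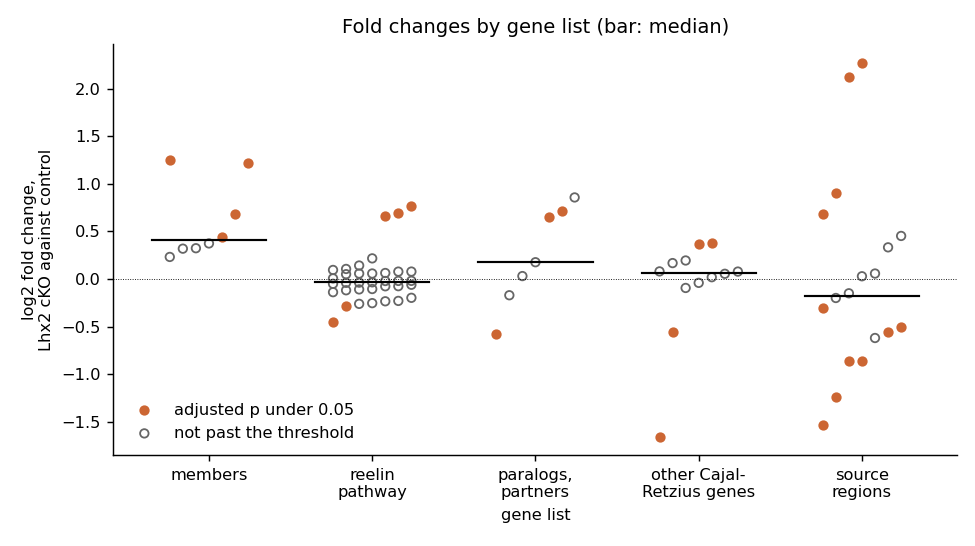
Log2 fold change of each analysed gene in 5 lists, with filled points for an adjusted p under 0.05 and a bar at each list's median. The 8 members all lie above 0, most reelin pathway genes lie near 0, and the genes of the source regions spread from -1.54 to 2.27.

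Paralogs and partners of the members moved in both directions. Of the 9 listed, 7 were analysed, with 2 higher, 1 lower and a median log2 fold change of 0.18. Over all tested genes 11.6% were called higher and 9.17% lower, the background for these counts and for those of every later list. Ebf4, the other analysed member of the Ebf family, fell from 46.8 and 45.6 CPM in control to 31.1 and 31.0 CPM in Lhx2 cKO (-0.57 on the log2 scale, SE 0.106, adjusted p = 6.62e-05), whereas Ebf3 had risen. Zfp423, a zinc-finger protein that binds EBF factors, rose from 24.5 and 23.7 CPM to 38.6 and 37.2 CPM (0.65, SE 0.112, adjusted p = 2.16e-05). Its close relative Zfp521 had overlapping groups and a log2 fold change of 0.03. Cacna2d3, a paralog of Cacna2d2, rose from 17.6 and 15.2 CPM to 25.6 and 28.2 CPM (0.72, SE 0.131, adjusted p = 6.13e-05). Cacna2d1 (0.18, adjusted p = 0.200) and Trp53 (-0.17, adjusted p = 0.226) did not pass the test. Calb1, counted 26 and 25 times in control, had a log2 fold change of 0.86 with a wide interval of 0.01 to 1.71 and did not pass either (adjusted p = 0.152).

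Other genes that Cajal-Retzius cells are known to express moved in both directions. Of 13 listed, 12 were analysed, with 2 higher, 2 lower and a median log2 fold change of 0.07. The chemokine receptor genes Cxcr4 and Ackr3, which guide these cells along the meninges, rose slightly. Which cells of the tissue carried these 2 rises was not tested. Cxcr4 was at 22.3 and 24.0 CPM in control and at 28.1 and 32.3 CPM in Lhx2 cKO (log2 fold change 0.38, SE 0.12, adjusted p = 0.0189), and Ackr3 at 21.4 and 23.5 against 25.5 and 32.3 CPM (0.36, SE 0.126, adjusted p = 0.0337). Neither receptor passed in DESeq2 (adjusted p = 0.0614 for Cxcr4 and 0.112 for Ackr3), without control 1 (0.172 and 0.233) or without Lhx2 cKO 2 (0.271 and 0.56, with a log2 fold change of 0.18 for Ackr3), within ranges of 0.0109 to 0.271 and 0.00441 to 0.56. Their ligand gene Cxcl12, made by the meninges and by cortical progenitors, fell from 48.9 and 56.5 CPM to 23.4 and 28.3 CPM (-1.03, SE 0.113, adjusted p = 2.62e-09).

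Eomes, expressed in young Cajal-Retzius cells but mostly in intermediate progenitors of the cortex, fell from 215 and 216 CPM to 68.8 and 67.7 CPM (-1.66 on the log2 scale, SE 0.096, adjusted p = 5.51e-17). Zic1, a zinc-finger factor of septal and meningeal cells, fell from 15.01 and 15.8 CPM to 9.89 and 11.1 CPM (-0.56, SE 0.157, adjusted p = 0.00808). The Zic1 call was lost without control 2 (0.0527) and without Lhx2 cKO 1 (0.0700), within a range of 0.00595 to 0.0700. Tbr1, shared with deep-layer neurons, was at 0.08 on the log2 scale (adjusted p = 0.615), and Nr2f2, a nuclear receptor gene of hem-derived cells and caudal interneurons, was at -0.04 with overlapping groups.

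Of 30 genes listed for the regions that give rise to Cajal-Retzius cells and for the factors that bound them, 18 were analysed, and 4 rose and 7 fell, with a median log2 fold change of -0.17. The hem genes Wnt3a, Wnt8b, Lmx1a, Gdf7, Bmp4, Msx1 and Rspo1 were among the 12 not analysed here, so the hem is represented in part only. The hem genes that were analysed and called went both ways, and were named after their values were seen. Rspo2, which encodes a Wnt-enhancing R-spondin, rose from 3.22 and 1.48 CPM to 8.26 and 12.1 CPM (2.12 on the log2 scale, SE 0.262, adjusted p = 3.77e-08), with 2.77 without control 1 and 1.66 without control 2. The ligand gene Wnt5a rose from 2.85 and 3.56 CPM to 6.20 and 5.79 CPM (0.90, SE 0.255, adjusted p = 0.00854), a call lost without control 1 (0.101) and without Lhx2 cKO 1 (0.0501; alternatives from 0.00618 to 0.101). Rspo3 fell from 49.6 and 46.8 CPM to 27.6 and 25.5 CPM (-0.86, SE 0.108, adjusted p = 5.55e-08). The remaining rise besides Dmrt3 was that of Nrg3, a neuregulin gene (0.68, adjusted p = 9.08e-06). Cortical progenitor factors fell: Emx1 from 119 and 107 CPM to 39.1 and 38.9 CPM (-1.54, SE 0.101, adjusted p = 2.00e-15), and Pax6 from 123 and 134 CPM to 57.5 and 51.7 CPM (-1.24, SE 0.1, adjusted p = 6.41e-13). The doublesex-related factors Dmrta2 and Dmrt3, both expressed medially near the hem, moved in opposite directions. Dmrta2 fell from 57.2 and 51.1 CPM to 29.7 and 29.9 CPM (-0.86, SE 0.106, adjusted p = 3.32e-08), and Dmrt3 rose from 2.52 and 2.12 CPM to 11.3 and 11.2 CPM (2.27, SE 0.223, adjusted p = 1.60e-10).

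Several members are also expressed by other cells of the tissue, so the markers of those cells were set beside them. The 16 interneuron markers, relevant to Reln, Ndnf and Calb2, summed to 475 and 432 CPM in control and to 613 and 587 CPM in Lhx2 cKO. Of these 16, 5 rose and 0 fell, beside 11.6% called higher and 9.17% called lower over all tested genes. The largest rises were those of the neuropeptide genes Npy (log2 fold change 1.25, adjusted p = 2.75e-12) and Sst (1.07, adjusted p = 6.54e-11). Npy went from 29.2 and 33.1 CPM to 69.7 and 78.7 CPM, and Sst from 43.0 and 41.7 CPM to 83.0 and 95.3 CPM. Most of the rise in the summed level came from Npy and Sst. The other 3 that rose, and the genes that follow them here, were named after their values were seen. The GABA synthesis gene Gad2 (0.48, adjusted p = 0.00196) and the vesicular GABA transporter gene Slc32a1 (0.58, adjusted p = 0.00141) rose, and so did Maf (0.39, adjusted p = 0.00395), whose call was lost without control 2 (0.082) and without Lhx2 cKO 1 (0.116; alternatives from 0.000575 to 0.116). Gad1, the second GABA synthesis gene, and Lhx6, a factor of interneurons from the medial ganglionic eminence, had overlapping groups and log2 fold changes of -0.07 and -0.06. Sp8 lay lower in both Lhx2 cKO libraries (-0.62) without passing the test (edgeR adjusted p = 0.105). Of the 16 markers 12 lay above 0. No interneuron marker was at 0 in any library, and the lowest count was 38. The part of interneurons in the rise of Reln and Ndnf was not tested.

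Endothelial markers rose as well, with 6 of 8 called higher. Their sums were 180 and 220 CPM in control against 270.1 and 316 CPM in Lhx2 cKO. Cldn5 was at 0.70 and Cdh5 at 0.72 on the log2 scale. All 8 had both Lhx2 cKO libraries above both control libraries, as did the 8 members and 30.2% of all tested genes. The median log2 fold change was 0.49 for the endothelial markers and 0.41 for the members. The 11 analysed mural and meningeal markers, relevant to Ebf1, summed to 271 and 288 CPM in control and to 222 and 237 CPM in Lhx2 cKO, with 1 higher and 3 lower. Among these Col1a1 was at -3.0 on the log2 scale, with -3.88 if Lhx2 cKO 1 was left out and -2.46 if Lhx2 cKO 2 was, and Cxcl12 fell as given above. Col1a1 stood at 25.7 and 23.0 CPM in control against 4.44 and 1.65 CPM in Lhx2 cKO. Most of the fall in the summed level came from Col1a1 and Cxcl12. The other gene called lower was Rgs5 of mural cells, named after its values were seen. It was at 66.6 and 68.5 CPM in control against 53.5 and 53.4 CPM in Lhx2 cKO (-0.34, edgeR adjusted p = 0.0108). The mural genes Pdgfrb (0.06), Kcnj8 (0.16) and Abcc9 (-0.15) had overlapping groups. Of the 11 genes 6 lay above 0. Among these, named after their values were seen, Cspg4 of mural cells rose (0.38, adjusted p = 0.0112), a call lost without control 1 (0.237) and without Lhx2 cKO 2 (0.0586; alternatives from 0.00459 to 0.237). The fibroblast collagen genes Col1a2 (0.25, adjusted p = 0.365) and Col3a1 (0.20, adjusted p = 0.392) did not pass the test. The 7 analysed striatal markers, also relevant to Ebf1, summed to 466 and 439 CPM against 386 and 383 CPM, with 3 higher, Penk among them at 1.63, and 1 lower, Meis2 at -0.56. Meis2 set the direction of that sum: without it the other 6 summed to 155 and 131 CPM in control and to 174 and 175 CPM in Lhx2 cKO. The part of these cells in the values of Ebf1 was not tested.

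The 5 analysed subplate markers summed to 164 and 161 CPM in control and to 81.5 and 90.9 CPM in Lhx2 cKO. Of these, 1 was called higher and 3 lower, the latter including Lpar1 at -3.72 and Nxph4 at -1.04. The marker called higher was Nr4a2 (0.40, edgeR adjusted p = 0.0242), named after its values were seen. Ccn2, named likewise, had overlapping groups and a log2 fold change of 0.31. The 5 analysed thalamic markers, relevant to Calb2, summed to 102 and 111 CPM against 96.8 and 96.3 CPM. Slc17a6, named after its values were seen, made up most of that sum and of its fall. It was at 89.1 and 99.7 CPM in control and at 83.8 and 83.7 CPM in Lhx2 cKO (edgeR adjusted p = 0.219). Among the 5 markers, 2 had both Lhx2 cKO libraries above both control libraries, as did 30.2% of all tested genes. The other markers lay lower or overlapped. Of the 5 markers Rora alone was called, at 0.86, with an edgeR adjusted p of 0.0479. That call was lost under RLE size factors (0.0505), the replicate block (0.0635), limma-voom (0.0745) and DESeq2 (0.120). The estimate for Rora ran from 0.38 without Lhx2 cKO 1 to 1.21 without Lhx2 cKO 2. Of the 6 choroid plexus markers only Aqp1 was analysed, at 1.28 to 1.52 CPM, and it did not pass the test (adjusted p = 0.746). None of the markers analysed was at 0 in any library, which the makeup of the count table nearly fixed in advance.

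**Figure D4:**
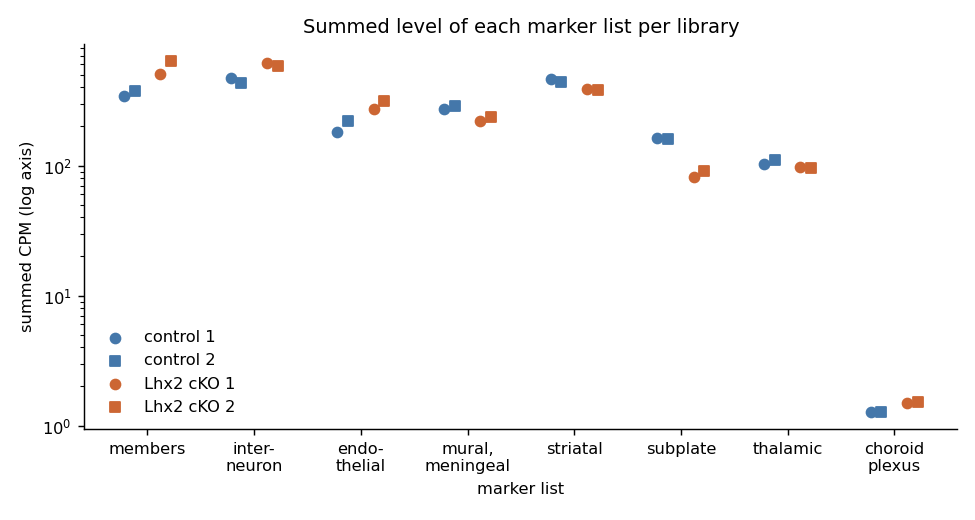
Summed CPM (log axis) of the 8 members and of the analysed markers of 7 other cell types in each library. Sums of the members, interneuron markers and endothelial markers are higher in both Lhx2 cKO libraries (orange) than in both control libraries (blue). The mural and meningeal, striatal, subplate and thalamic sums are lower. Npy and Sst carry most of the interneuron rise, and Col1a1 and Cxcl12 most of the mural and meningeal fall. Slc17a6 carries most of the thalamic fall. The striatal sum without Meis2 is higher in Lhx2 cKO.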

How the data were processed

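Read counts per gene were deposited by the authors for 4 libraries. Trim Galore, Subread, featureCounts, edgeR and the build mm39 are named in the submitters' processing notes, without roles or versions; the annotation is not given in the sources used here. Per the file headers the table also holds the authors' log2 fold change and mean log2 CPM, the authors' p-value and adjusted p-value, and its -log10, which was deposited but not used, with gene lengths in bases.

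The counts were analysed with edgeR 4.0.16 in R 4.3.3 (TMM factors 0.973 to 1.02, filterByExpr with a minimum of 10 counts, quasi-likelihood test of Lhx2 cKO against control, two-sided) over 13288 genes, on raw counts without covariates; the procedure was tested on simulated data. SE is the absolute log2 fold change over the square root of F, and 95% intervals use the test's total degrees of freedom. Library totals are over the 13289 genes analysed. The depth leaves the least counted member with 70 reads in a library; intervals cover the spread estimated from 2 libraries per group.

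Named were Lhx2, the members, Lrp8, Vldlr and Dab1. Up to 4 called genes by smallest p were named in each pathway list and up to 2 in each cell type list. Other genes complete a family or a small count, or show what carries a list. The members and lists were chosen with earlier results of these data known, from general knowledge, and carry no set test; 1 listed gene is counted but not reported by name here. Prox1 stands in both the interneuron and the thalamic list. Alternatives were RLE, upper-quartile and total-count scaling, no filter, a mean count of at least 50, a replicate block, DESeq2 1.42.0, limma-voom (limma 3.58.1), an adjusted p under 0.01 and leaving out each library in turn, where the lone library of a group is assumed to vary like the other group. Gene positions are from GENCODE M21 (GRCm38) and promoters from RefSeq (GRCm38.p6), not from the build of the counts. Promoters were found for 6 of the 10 symbols.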

Additional observations from a re-analysis of the deposited data

How the results depend on the processing

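Reln, Ndnf and Ebf3 kept their calls under every alternative run, and all 8 members kept a log2 fold change above 0, with medians from 0.386 to 0.531; since no group overlapped for any member, leaving out 1 library could not be expected to turn a sign. The count of members called was 3 or 4 throughout, and was 3 wherever Trp73 lost its call. Over all genes 1697 were called at an adjusted p under 0.01, fewer by construction, and 1633 to 2396 when 1 library was left out, the lowest without Lhx2 cKO 2 and 1790 without control 1; the cause was not tested. Of the other Cajal-Retzius genes, DESeq2 and the adjusted p under 0.01 each called 2, Eomes and Zic1 of the 4, and leaving out 1 library gave 2 to 3. Dab1 ranged from -0.089 to 0.038 on the log2 scale when 1 library was left out; it was above 0 without control 2 (0.038) and without Lhx2 cKO 1 (0.005), with adjusted p of 0.878 and 0.986. Among 552 values of named genes under alternatives, 511 kept their direction and side of the threshold, 38 lost a call, 1 gained one and 2 changed sign. The median log2 fold change of all genes stayed between -0.007 and 0.006 under the other scalings.

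No broad effect shared by replicate number was seen: differences between the replicates of control and between those of Lhx2 cKO correlated at 0.001 over the tested genes. This value cannot tell whether libraries of the same number share a litter or a batch, which the labels do not give. A fit with the replicate block called 2874 genes and 3 members, Trp73 being at an adjusted p of 0.0509. With 2 libraries per group, the low counts of Calb2, Lhx5 and Ebf1 limit what could be detected for them.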
